A study of Mus musculus with 4 samples.

Results

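The cytosolic ribosomal protein genes encode the protein shell of the ribosomes that translate nuclear mRNA. They were taken by name from a table of counts per gene in mouse pancreatic islets, the clusters of hormone-secreting cells in the pancreas. A gene was a member if its symbol was Rpl or Rps with a number and an optional a, x, l or y ending, or was Rplp0, Rplp1, Rplp2 or Rpsa. Symbols ending in -ps, which mark pseudogenes, and the S6 kinases were left out. This gave 90 members among 52636 genes listed, of which 54 are named for the large subunit and 36 for the small subunit. The members fall into 77 standard ribosomal proteins (46 large, 31 small), 8 paralogs of them and 5 further copies. The 5 copies and 1 of the paralogs are annotated as processed pseudogenes in GENCODE M21, although their symbols do not end in -ps.

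Islet RNA was sequenced from wild-type mice, the control group, and from Tspan7 knockout mice with the genotype Tspan7 y/-, in 2 libraries per group. Tspan7 is an X-linked gene for a tetraspanin, a small protein that spans the cell membrane. The animals' strain and age, and any treatment, are not given in the labels, and the text on the series says knockdown where the sample labels say knockout. Whether each library came from a different animal is not stated, so the p-values measure only the spread between the 4 samples, part or all of which may be technical. The question is whether the genes for the translation machinery differ between islets with and without Tspan7.

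Ribosomal proteins are made in matched amounts, and each assembles with ribosomal RNA into the large or the small subunit in the nucleolus. Their mRNAs begin with a C followed by a run of pyrimidines (C and T), the 5′ terminal oligopyrimidine or TOP motif. Through this motif the kinase complex mTORC1 and the RNA-binding protein Larp1 control how much of these mRNAs is translated and how stable they are. Beta cells make large amounts of a few secreted hormones, so translation is a large part of their work.

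Runs of pyrimidines can be looked for in the reference sequence around annotated transcription starts. RefSeq promoter sequences (mouse build GRCm38.p6) were matched by symbol to 65 of the 90 members, with 77 annotated starts. A run of at least 8 pyrimidines on the transcribed strand, within 10 bases before the start and the 20 bases from the start on, was found at 25 of these 77 starts (32.5%). Among all 32851 annotated starts the share was 11.2%. On the opposite strand the members had such a run at 3 starts (3.90%), against 13.3% of all starts. The windows below are 30 bases long, 5′ to 3′ on the transcribed strand, and capitals mark the pyrimidine run where one was found. The first 4 show members with a run, and the last 4 show members without one on which later values turn. Rps16 and Rpl27 have the smallest unadjusted p of their subunits, Rpl10 the highest level per length, and Rpl22 a paralog that takes more counts than it does.
Rpl34 (chr3:130730318-130730347, minus strand): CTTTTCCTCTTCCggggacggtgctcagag
Rps24 (chr14:24490668-24490697, plus strand): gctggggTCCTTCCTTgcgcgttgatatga
Rps27 (chr3:90213629-90213658, minus strand): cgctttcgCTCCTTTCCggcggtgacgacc
Rpl22l1 (chr3:28805498-28805527, plus strand): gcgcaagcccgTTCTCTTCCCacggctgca
Rps16 (chr7:28350679-28350708, plus strand): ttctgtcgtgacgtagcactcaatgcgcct
Rpl27 (chr11:101442235-101442264, plus strand): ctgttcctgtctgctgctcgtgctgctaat
Rpl10 (chrX:74270806-74270835, plus strand): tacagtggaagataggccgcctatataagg
Rpl22 (chr4:152324426-152324455, plus strand): cttctggaatgttccagctcccactgacag
Rpl34, Rps24 and Rpl22 each have a further annotated start, where no run of this length was found. A window without a run says only that these letters are absent around that annotated start. A run alone does not show a TOP motif either. The search did not require a C at the start or a run that begins there.

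Across the whole 300-base promoter windows, from 250 bases before the start, 2 short words were also counted. CTTTCC, which can lie inside a pyrimidine run, was found on either strand at 38 of the 77 member starts (49.4%), against 26.6% of all starts. On the transcribed strand it was at 37.7% of member starts, against 14.1%, and on the opposite strand at 19.5%, against 14.4%. CCGGAAG, a word of the kind that transcription factors of the ETS family are known to bind, was found on either strand at 27 (35.1%), against 8.86% of all starts. These are matches of letters and not measured binding.

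Library totals ranged from 7855665 to 9377220 counts. Counts of Tspan7 were 1924 and 1795 in control and 3 and 2 in knockout, and it was the single gene of 16924 tested that passed an adjusted p under 0.05 (edgeR). Islet hormone and beta-cell genes were high in all libraries, with a summed level of 30556 to 36733 CPM over 18 endocrine markers, where CPM is a gene's counts scaled to a library of the same fixed size. Markers of acinar cells, the enzyme-making cells around the islets, varied most between libraries. Their summed level over 20 genes was 4041 and 167 CPM in control replicates 1 and 2 and 1846 and 8402 CPM in knockout replicates 1 and 2. Markers of ductal, endothelial, macrophage and stellate cells were also present, and those of lymphocytes and red cells summed to at most 2.96 CPM in any library, with Ms4a1 and Hba-a2 at 0. In bulk tissue, fewer cells of a type and less RNA per cell cannot be told apart.

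Counts assigned to ribosomal protein genes were a small share of the islet libraries. The 77 standard members together took 0.945% and 0.865% of the counts in control replicates 1 and 2, and 0.856% and 0.902% in knockout replicates 1 and 2. The median standard member stood at 113 and 96.3 CPM in control and 94.8 and 107 CPM in knockout, after scaling. All 77 standard members were detected in every library, with counts from 144 (Rpl27, knockout replicate 2) to 5053 (Rpl4, control replicate 1). The plot of CPM by gene shows each member's 4 libraries lying close together compared with the spread between genes.

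**Figure D1:**
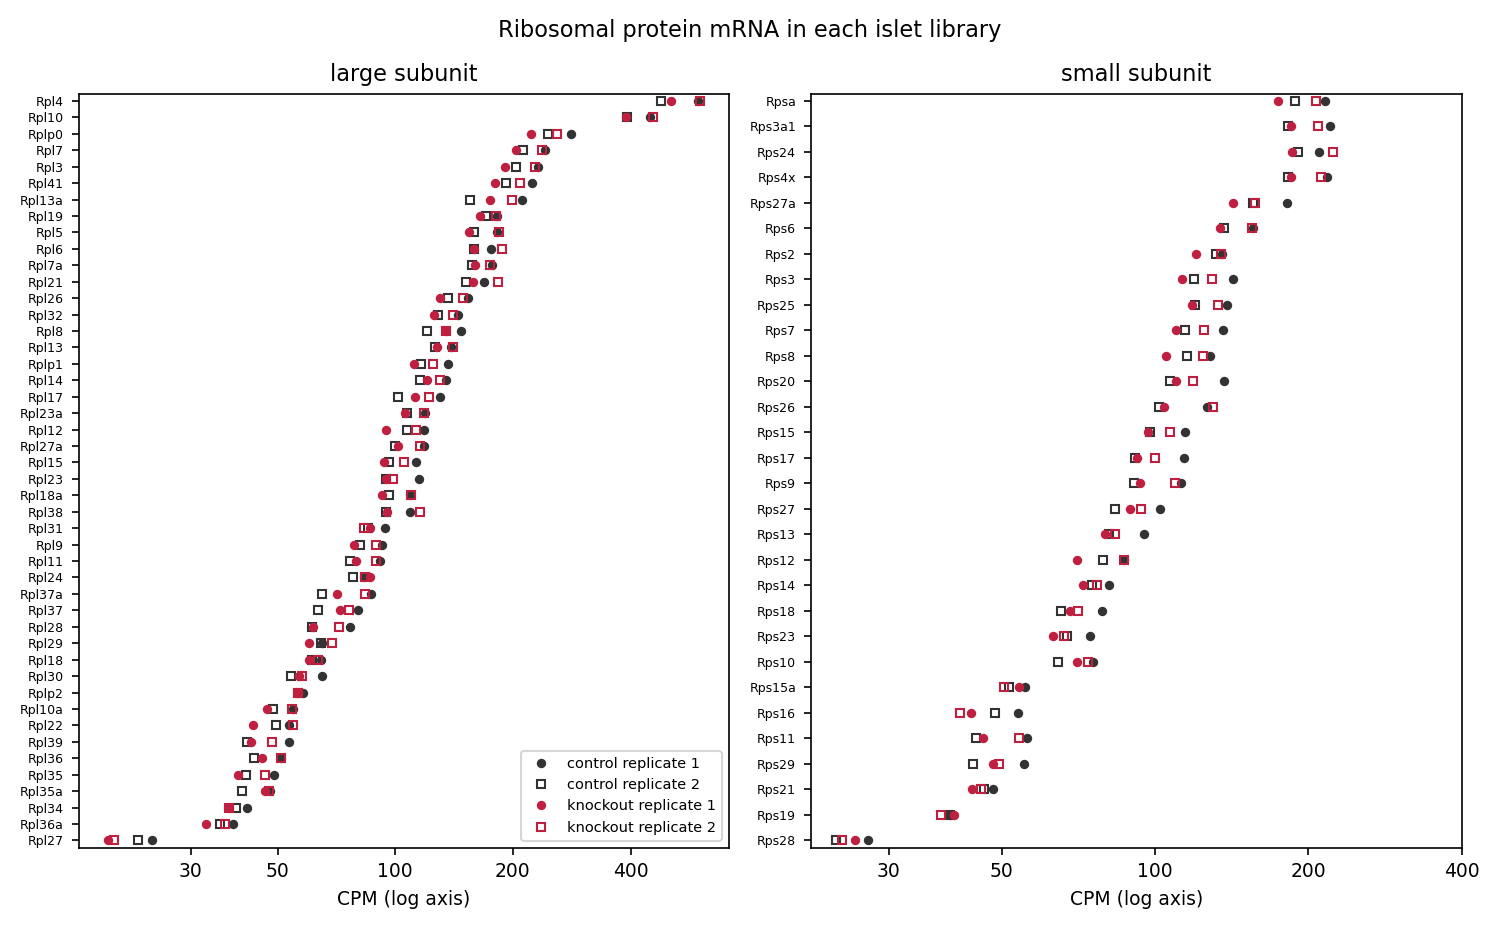
CPM of standard ribosomal protein genes in the 4 libraries, large subunit and small subunit in separate panels, on a log axis. Each point is 1 library; a gene's own points lie close together, and comparison between genes needs the length scaling given in the text.

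Levels were compared between genes only per length, as control CPM per kb of the median protein-coding transcript. On this scale the standard members had a median of 128, with 124 for the large and 134 for the small subunit. They ran from 10.5 for Rps15a to 508 for Rpl10. In the large subunit the highest were Rpl10, a late-joining protein of the subunit, at 508 ± 47.2 (SD, n = 2), Rpl41, the smallest protein of the ribosome, at 395 ± 41.9, and Rpl4 at 349 ± 53.8. Rpl10 stood above Rpl41 by more than these SDs, whereas Rpl41 and Rpl4 differed by less than the SD of Rpl4. The lowest were Rpl35 at 47.7, Rpl27 at 33.98 and Rpl22 at 25.1 CPM per kb.

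In the small subunit the highest were Rps24 at 381 ± 24.9 CPM per kb, Rps27 at 269 ± 38.6 and Rps27a, which is made fused to ubiquitin, at 236 ± 26.0. Rps27 and Rps27a differed by less than the SD of Rps27. The lowest were Rps16 at 46.2, Rps20 at 32.8 and Rps15a at 10.5 CPM per kb. The last pair have unusually long annotated transcripts, with a median coding transcript of 3706 bases (Rps20) and 5130 bases (Rps15a), against a median of 774 bases over the standard members. With the length of all annotated exons in its place, an alternative chosen after seeing the data, Rps24 moved to place 24 of 31 and Rpl41 to place 5 of 46. Rpl4 was then first, Rpl10 in place 3, Rpl27 place 45 of 46 and Rps15a place 30 of 31. The order thus depended on the gene model used, at its ends as well as in between: the lowest members were then Rpl35a and Rps19.

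Loss of Tspan7 was not accompanied by a called change in any ribosomal protein gene. Of the 85 members that passed the filter on low counts, 0 had an adjusted p under 0.05 (edgeR), against 0.00591% of all genes tested, and 0 had an unadjusted p under 0.05, against 1.55% of all genes higher and 1.96% lower in the knockout. The other tests run, DESeq2 and limma-voom, also called 0 members. The knockout-minus-control log2 fold changes of the 77 standard members were small, from -0.29 for Rpl27 to 0.09 for Rpl21, with a median of -0.03. The middle of this range was narrow: the difference between the upper and lower quartiles was 0.08, against 0.29 over all genes tested and 0.19 over the 7500 genes at or above the level of the lowest standard member.

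More standard members had a fold change below 0 than above it. The counts were 57 below and 20 above, against 49.4% below 0 and 50.6% above it among all genes tested, whose median was 0.003. In the large subunit 29 of 46 were below 0, with a median of -0.02, and in the small subunit 28 of 31, with a median of -0.06. The direction turned when single control or knockout libraries were left out. Without control replicate 1 the median of the standard members was 0.06, with 58 of 77 above 0, and without knockout replicate 1 it was 0.04, with 52 above 0. Leaving out control replicate 2 gave -0.14 and leaving out knockout replicate 2 gave -0.12. The members share each library, so their common sign is not a count of independent observations.

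The confidence intervals of the fit reflect only the spread between the 4 libraries, part or all of which may be technical. All 77 confidence intervals of the standard members (95%) included 0, and 75 of them lay within a 1.5-fold change in either direction. The lowest bound was -0.67 for Rpl27 and the highest was 0.43 for Rpl37a on the log2 scale.

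**Figure D2:**
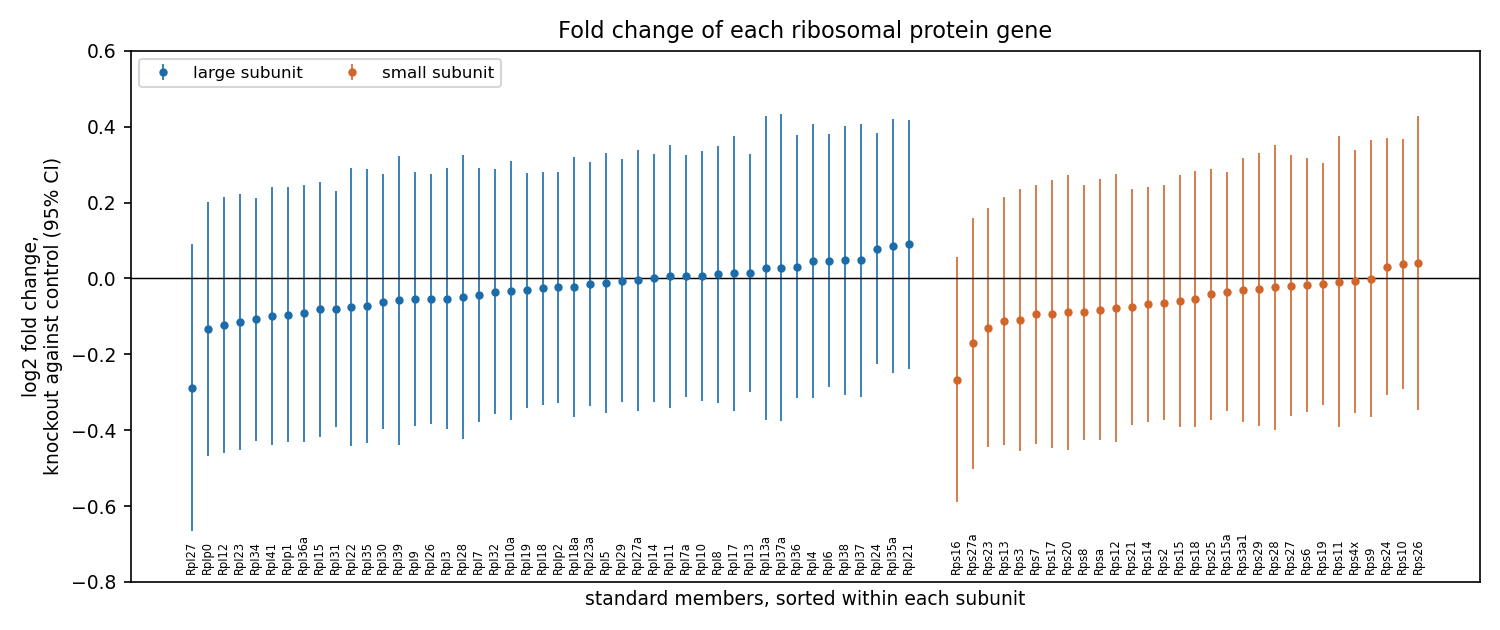
Log2 fold change, knockout minus control, of standard ribosomal protein genes, each with its 95% confidence interval from the edgeR fit, large subunit in blue and small subunit in orange. Every interval crosses 0, and the point furthest from 0 is Rpl27 at -0.29.

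Among the large-subunit proteins the smallest unadjusted p belonged to Rpl27. It measured 23.8 and 21.9 CPM in control and 18.4 and 19.0 CPM in knockout. The knockout values were both below the control values. The fitted log2 difference was -0.29 ± 0.16 (SE) and its adjusted p was 0.9997 (edgeR). Rplp0, the base of the stalk that recruits translation factors, measured 281.9 and 245.9 CPM in control and 222.6 and 258.7 CPM in knockout. Its groups overlapped, since knockout replicate 2 exceeded control replicate 2, and its log2 fold change was -0.13 ± 0.15.

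Rpl12, which binds beside the stalk, measured 118.8 and 107 CPM in control and 94.9 and 113 CPM in knockout, and Rpl23 measured 115 and 94.5 CPM against 94.8 and 98.6 CPM. In both genes control replicate 1 was highest and the groups overlapped, with log2 fold changes of -0.12 ± 0.15 and -0.11 ± 0.15. Rpl34 was at 41.8 and 39.1 CPM in control and 37.5 and 37.5 CPM in knockout. Its knockout libraries were nearly equal and both lay below the control libraries, with a log2 fold change of -0.11 ± 0.14.

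Among the small-subunit proteins Rps16 came first. It measured 53.9 and 48.5 CPM in control and 43.6 and 41.5 CPM in knockout, so that the groups did not overlap. Its log2 fold change was -0.27 ± 0.14, with an unadjusted p of 0.0927 and an adjusted p of 0.9997 (edgeR). Rps27a measured 182 and 155 CPM in control and 142 and 157 CPM in knockout, with overlapping groups and a log2 fold change of -0.17 ± 0.14. Rps23, a protein at the decoding centre, measured 74.4 and 67.1 CPM in control and 63.1 and 66.2 CPM in knockout. Its knockout libraries were each below either control library, the nearer pair by under 1 CPM, and its log2 fold change was -0.13 ± 0.14. Rps13 measured 94.95 and 81.2 CPM against 79.6 and 83.4 CPM, which overlap, with a log2 fold change of -0.11 ± 0.14.

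Groups that did not overlap were not more frequent among the members than elsewhere. The knockout libraries were both below the lower control library in 8 of the 85 members tested, against 15.0% of all genes tested. Among them were Rpl27, Rpl34, Rplp2, Rps16, Rps21, Rps23 and the paralog Rps4l, listed for this property, seen in the values. The reverse held for 1 member, Rpl24, at 83.4 and 77.9 CPM in control and 86.4 and 83.9 CPM in knockout, against 15.3% of all genes. Rplp2 shows how small such a separation can be: it measured 58.1 and 56.4 CPM in control and 56.4 and 56.3 CPM in knockout.

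The clearest structure in the ribosomal protein genes lay between libraries of the same group. In 76 of 77 standard members control replicate 2 was below control replicate 1, with a median log2 difference of -0.20, and in 69 of 77 knockout replicate 2 was above knockout replicate 1, with a median of 0.17. The corresponding medians over all genes tested were -0.003 and -0.002, which the scaling itself holds near 0. Between the group means the absolute log2 difference had a median of 0.05 and did not exceed 0.28. At the median the differences between single replicates were thus larger than the difference between group means. These are unlike measures, since a mean of 2 libraries varies less than 1 library does. From replicate 1 to replicate 2 the differences had opposite signs in the 2 groups.

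Ranked within each gene, control replicate 1 was the highest library in 61 of the 77 standard members and control replicate 2 in 0. Knockout replicate 1 was the lowest in 40 and control replicate 2 in 32. The pair formed by control replicate 1 and knockout replicate 2 held the upper places in 64 members (83.1%), against 22.1% of all genes tested. The opposite pair, control replicate 2 and knockout replicate 1, held them in 0 members, against 20.8% of all genes tested. These 2 pairs were also the most frequent upper pairs over all genes tested. As a deviation from a gene's mean over the 4 libraries, the standard members had medians of 0.12 and -0.08 in control replicates 1 and 2 and -0.10 and 0.06 in knockout replicates 1 and 2 on the log2 CPM scale. Over all genes tested these medians lay between 0.004 and 0.009, again held near 0 by the scaling. Eef1a1, which encodes the elongation factor that brings tRNA to the ribosome and is no member, had the same order, with 2376 and 2016 CPM in control and 1969.5 and 2372 CPM in knockout.

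The size of this shift depends on the scaling. Scaled to the library totals alone, the median difference between the control libraries was -0.11, with 71 of 77 members lower in replicate 2, and that between the knockout libraries was 0.07, with 53 of 77 higher in replicate 2. Scaling with the ribosomal protein genes left out of the scaling factors gave -0.20 and 0.17. With 2 libraries against 2, an exact permutation test cannot give a two-sided p below 0.333, so no test was made of it.

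**Figure D3:**
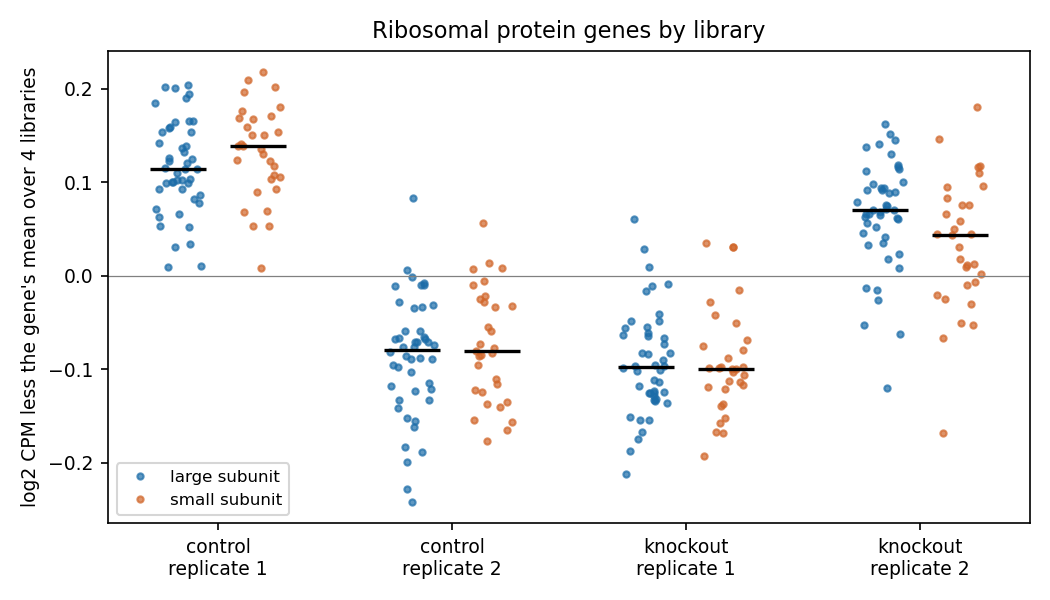
Deviation of each standard ribosomal protein gene from its own mean over the 4 libraries, in log2 CPM, by library, with a bar at the median of each subunit. Over both subunits control replicate 1 and knockout replicate 2 have medians of 0.12 and 0.06, and control replicate 2 and knockout replicate 1 of -0.08 and -0.10.

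Several other measures had the same upper pair of libraries in their sums. The summed acinar markers were higher in control replicate 1 and knockout replicate 2 than in the others, and 18 of the 20 acinar genes had these as their upper pair. Islet endocrine markers summed to 36227 and 30556 CPM in control and 30950 and 36733 CPM in knockout, and 8 of 18 genes had that upper pair. mRNA encoded by the mitochondrial genome summed to 37847 and 37099 CPM in control and 33226 and 47638 CPM in knockout, also with that upper pair. By gene its control libraries hardly differed. The median log2 difference, replicate 2 minus replicate 1, was 0.007 in control and 0.54 in knockout over 13 genes. The part of these in the shift of the ribosomal protein genes was not tested. Macrophage markers, at 119 and 99.4 CPM in control and 85.1 and 72.8 CPM in knockout, did not have this upper pair, nor did the summed ductal, endothelial and stellate markers.

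The proportions among the members differed little between libraries. The large subunit took 63.7% and 63.7% of the standard members' counts in the control libraries (exact binomial 95% intervals of 63.4% to 64.0% in both), 64.1% in knockout replicate 1 (63.8% to 64.5%) and 64.5% in knockout replicate 2 (64.1% to 64.8%). With no molecular identifiers on the reads, such intervals reflect counting error alone. The knockout shares were higher by less than 1 percentage point, and the interval of knockout replicate 1 overlapped those of the control libraries, whereas that of knockout replicate 2 lay above both.

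Proportions were compared gene by gene as a chi-square of the counts of 2 libraries per degree of freedom, which is about 1 where libraries differ by counting noise alone. Over the 77 standard members it was 1.67 to 1.77 for the pairs within a group and 1.47 to 2.31 for the 4 pairs across groups. For 78 mitochondrial ribosomal protein genes, which build the separate ribosome of the mitochondrion, the ranges were 1.598 to 1.66 and 1.19 to 2.02. For all genes tested they were 13.1 to 13.4 and 7.13 to 20.1. The statistic grows with the counts of a gene. For the 7500 genes at or above the level of the lowest standard member it was 24.5 to 25.9 within groups and 12.4 to 38.6 across them. That set has no upper limit on level, so it is not matched to the members. In every set the 4 pairs across groups spanned the within-group values.

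Paralogs are second genes for a ribosomal protein, several of them used in restricted tissues. In these islets 2 of them took more counts than their standard partner. Rpl36al took 68.6% to 70.4% of the counts of the pair with Rpl36a over the 4 libraries, and 58.3% to 60.3% per length. Rpl22l1, the paralog of Rpl22, took 54.6% to 57.4% of the counts and 82.0% to 83.7% per length, its transcript being the shorter. These shares per length use the median coding transcript and depend on the gene model. Over all annotated exons, Rpl22l1 and Rpl22 stood closer, at 31.2 and 17.7 CPM per kb in control. Rpl36al and Rpl36a stood further apart, at 60.4 and 22.3. The window printed for Rpl22l1 holds a pyrimidine run of 10 bases, whereas that of Rpl22 holds none of 8. In the other pair, the windows of Rpl36al and Rpl36a both have a longest run of 5 bases. Whether such runs bear on the shares was not tested.

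Rpl22l1 measured 64.6 and 59.6 CPM in control and 58.1 and 68.2 CPM in knockout, and Rpl22 measured 53.3 and 49.6 CPM against 43.1 and 54.7 CPM. Knockout replicate 2 was highest and knockout replicate 1 lowest in both genes, so the groups overlapped. The log2 fold changes were 0.02 ± 0.15 for Rpl22l1 and -0.08 ± 0.16 for Rpl22. Rpl36al measured 85.7 and 77.8 CPM in control and 78.1 and 84.3 CPM in knockout, with a log2 fold change of -0.01 ± 0.14. These too followed the order of libraries of the standard members.

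Rps27l, known as a target of the tumour suppressor p53, took 25.2% to 29.6% of the counts of the pair with Rps27. It measured 34.3 and 35.0 CPM in control and 30.9 and 37.0 CPM in knockout, with overlapping groups and a log2 fold change of -0.03 ± 0.15. Rpl7l1, which takes part in early assembly of the large subunit, took 16.1% to 20.8% of the pair with Rpl7. Its order of libraries was the reverse of the standard members', with 47.4 and 55.9 CPM in control and 49.97 and 45.4 CPM in knockout. The log2 fold change of Rpl7l1 was -0.11 ± 0.15, and all 4 of these paralogs had an adjusted p of 0.9997 (edgeR).

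Of the remaining paralogs, Rps4l was detected at a level like that of Rps27l in CPM, and the others had at most 1 count in any library. Rps4l, annotated as a transcribed processed pseudogene in GENCODE M21, took 12.3% to 16.5% of the counts of the pair with Rps4x. It measured 35.4 and 35.9 CPM in control and 31.6 and 29.6 CPM in knockout, which do not overlap, with a log2 fold change of -0.22 ± 0.14 and an adjusted p of 0.9997 (edgeR). Rpl3l, the form of Rpl3 known from heart and skeletal muscle, had 1 count in each of 3 libraries and 0 in knockout replicate 2. Rpl10l, known from the testis, and Rpl39l had 0 counts in all 4 libraries. Taking 3 counts of the pair's total as the limit that a count of 0 allows, the share could be up to 0.0870% for Rpl10l and 0.817% for Rpl39l in the library with the fewest counts of the pair.

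**Figure D4:**
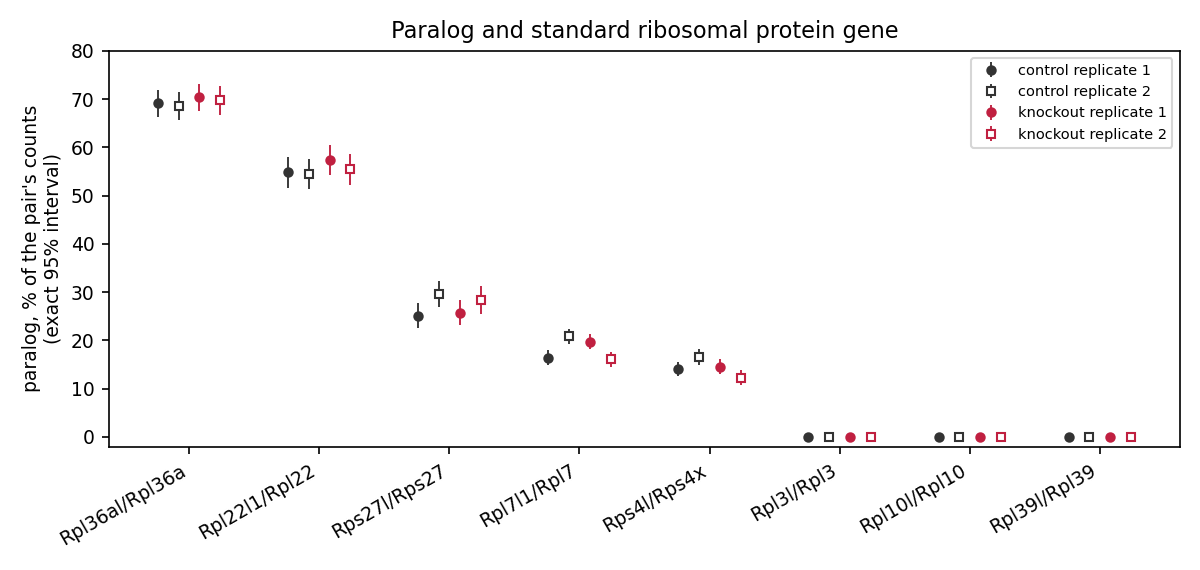
Share of the counts of each pair taken by the paralog, in percent, in each of the 4 libraries, with exact binomial 95% intervals where the paralog had any counts. Rpl36al and Rpl22l1 lie above 50% in every library, and Rpl3l, Rpl10l and Rpl39l lie at or near 0.

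The 5 further copies, Rpl32l, Rpl6l, Rps12l1, Rps3a2 and Rps3a3, fit the naming rule although GENCODE M21 annotates them as processed pseudogenes. None took more than 2.02% of the counts shared with its parent gene. Rpl32l and Rps3a3, with Rpl3l, Rpl10l and Rpl39l, were the 5 members left untested by the filter on low counts. A further 291 genes whose names mark them as ribosomal protein pseudogenes summed to 1.33% and 1.39% of the standard members' counts in control and 1.70% and 1.43% in knockout. How reads that match both a gene and its copies were counted is not given in the sources used here. Values of the copies and of their parents are therefore uncertain. The same holds for the members' share of the libraries, their levels per length and the paralog shares given above.

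Fau and Rack1 encode proteins of the cytosolic ribosome whose names fall outside the rule. Fau, a ubiquitin-like protein made fused to a small-subunit protein, measured 86.7 and 77.4 CPM in control and 79.6 and 76.9 CPM in knockout, with a log2 fold change of -0.07 ± 0.14. Rack1, a signalling scaffold on the small subunit, measured 199.6 and 169.6 CPM in control and 181 and 203 CPM in knockout, with a log2 fold change of 0.06 ± 0.15. In Rack1 control replicate 1 and knockout replicate 2 were again the upper pair.

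Other genes of translation were read from the same fit by lists. Of 20 translation factors whose mRNAs are known to carry a TOP motif, 0 were called, 13 had a fold change below 0 and 7 above it, and the median was -0.02. The median turned to 0.08 without control replicate 1 and to 0.05 without knockout replicate 1, and was -0.13 and -0.12 without the other control and the other knockout library. Eif2s3x, a subunit of the factor that delivers the initiator tRNA, was lowest in p at 53.9 and 51.3 CPM in control and 44.8 and 49.1 CPM in knockout (log2 fold change -0.16 ± 0.14). Eef1b2, an exchange factor for elongation, had -0.15 ± 0.16 and Btf3, part of the complex that binds nascent chains, -0.12 ± 0.13. In 13 of the 20 genes (65.0%) control replicate 1 and knockout replicate 2 were the upper pair, as in most ribosomal protein genes.

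Of 12 host genes of small nucleolar RNAs, many of which also carry the TOP motif, 11 had a fold change below 0, with a median of -0.10, and 0 were called. Their members of smallest p were low in counts: Snhg15 at 5.19 and 5.29 CPM in control and 3.93 and 4.49 CPM in knockout, Snhg8 at -0.29 ± 0.26 and Snhg5 at -0.24 ± 0.26 on the log2 scale. The median was -0.01 without control replicate 2. Of 29 initiation and release factors, 23 were below 0, with a median of -0.09 and 0 called. Gspt1, a release factor, measured 221 and 281 CPM in control and 213 and 172 CPM in knockout, which do not overlap, with a log2 fold change of -0.38 ± 0.17. Eif2b4, a subunit of the exchange factor of eIF2, had -0.38 ± 0.19, and Eif1ax, a start-site selection factor, had -0.23 ± 0.14.

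Of 28 tested genes of mTOR signalling and TOP control, 18 were below 0 and 10 above, with a median of -0.03 (-0.0040 without knockout replicate 2) and 0 called. Sesn1, an inhibitor of mTORC1, measured 39.0 and 29.2 CPM in control and 43.0 and 52.97 CPM in knockout. Its knockout values lay above both control values, with a log2 fold change of 0.49 ± 0.19, an unadjusted p of 0.0291 and an adjusted p of 0.9997 (edgeR). Eif4ebp1, the translation repressor that mTORC1 inactivates, measured 45.1 and 44.4 CPM in control and 38.9 and 30.9 CPM in knockout, with a log2 fold change of -0.35 ± 0.16. Mlst8, a subunit of the mTOR complexes, had -0.35 ± 0.20. Larp1, which binds the TOP motif, was at 272 and 279.97 CPM in control and 279 and 261 CPM in knockout and had -0.03 ± 0.13.

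Ribosome biogenesis was read from 86 genes, with 49 below 0 and 37 above, a median of -0.03 and 0 called. The median turned to 0.04 without knockout replicate 2. Nop56, a core protein of the particles that methylate ribosomal RNA, measured 41.4 and 52.6 CPM in control and 40.9 and 30.6 CPM in knockout, with a log2 fold change of -0.39 ± 0.19. Bop1, needed for maturation of the large subunit, had -0.36 ± 0.18 and Polr1b, a subunit of RNA polymerase I, had -0.39 ± 0.23. Only 9 of the 86 genes (10.5%, against 22.1% of all genes tested) had control replicate 1 and knockout replicate 2 as the upper pair. The opposite pair, control replicate 2 and knockout replicate 1, held the upper places in 27 (31.4%, against 20.8%). The biogenesis genes thus did not share the order of libraries seen in the ribosomal proteins themselves.

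The 78 mitochondrial ribosomal protein genes had 46 fold changes below 0 and 32 above, a median of -0.06 and 0 called. Mrps30 measured 28.1 and 22.9 CPM in control and 30.1 and 33.7 CPM in knockout (log2 fold change 0.32 ± 0.17), while Mrpl12 had -0.39 ± 0.23 and Mrpl18 -0.31 ± 0.20. Control replicate 1 and knockout replicate 2 were the upper pair in 9 of these 78 genes (11.5%, against 22.1% of all genes tested). The opposite pair was so in 22 (28.2%, against 20.8%). In 18 p53 target genes, which respond when ribosome assembly is disturbed, 9 fold changes were below 0 and 9 above, with a median of -0.02 and 0 called. Leaving out knockout replicate 1 gave a median of 0.03 and leaving out control replicate 1 gave 0.0017, while the removal of replicate 2 gave -0.10 (control) and -0.08 (knockout). The members of smallest p were Sesn1, given above, Phlda3 at 1.30 and 1.69 CPM in control and 0.931 and 0.528 CPM in knockout (-0.99 ± 0.52), and Ccng1 at -0.25 ± 0.14. Nuclear genes of oxidative phosphorylation, another abundant housekeeping set, had 47 of 73 fold changes below 0, a median of -0.07 and 0 called. Their groups did not overlap in 23 genes lower in the knockout (31.5%, against 15.0% of all genes tested) and 5 higher (6.85%, against 15.3%). Across the lists from TOP translation factors to p53 targets, the share lower ran from 14.0% (ribosome biogenesis) to 31.0% (initiation and release factors). The share higher ran from 0% (TOP translation factors and snoRNA host genes) to 14.0% (ribosome biogenesis).

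**Figure D5:**
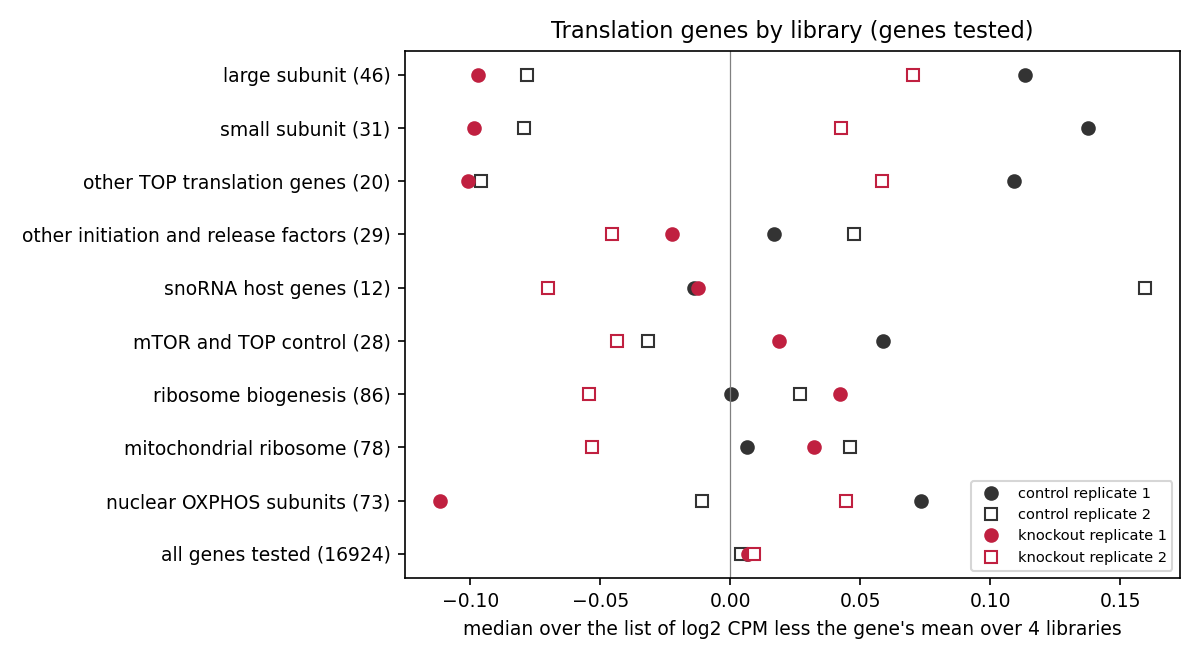
Median deviation from each gene's own mean over the 4 libraries, in log2 CPM, for each list and library, with the number of genes tested in parentheses. Control replicate 1 and knockout replicate 2 lie highest for both ribosomal subunits, the other TOP translation genes and the oxidative phosphorylation subunits. They do not for ribosome biogenesis or the mitochondrial ribosome. Over all genes tested all 4 libraries lie near 0, where the scaling holds them.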

How the data were processed

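The values analysed are raw counts per Ensembl gene, deposited by the authors as 1 table over 4 libraries of mouse islet RNA. The build listed is GRCm39 and the tools are HISAT2 and featureCounts, per the submitters' processing notes. Islets had been stored in Trizol and the library kit keeps strand, per the labels' protocols. Tool versions, the annotation release, strand setting and rule for multiply mapped reads: not given in the sources used here.

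Symbols came from GENCODE M21, which matched 52403 of 52636 identifiers. It is built on GRCm38, so it gave names and transcript lengths but no gene coordinates. The members and gene lists were chosen with earlier results of these data known. In edgeR 4.0.16 (R 4.3.3, limma 3.58.1), filterByExpr with a minimum count of 10 kept 16924 genes, and TMM gave the scaling. Knockout was set against control by a robust quasi-likelihood F test, two-sided and unpaired, with Benjamini-Hochberg adjustment over all genes tested and calls at an adjusted p under 0.05. CPM values are TMM-scaled, and log2 CPM used a prior count of 2. The fit was also run on simulated data, with the same noise setting for every gene and no shift shared by genes within a library. Such data do not test the fit under shared shifts like those described here.

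Named members were any called, the 5 of smallest p in each subunit, the 3 highest and 3 lowest per length in each subunit, every paralog pair, Fau and Rack1, and the 3 genes of smallest p in each translation list. Genes named beyond this rule (Rpl24, Rplp2, Rps21, Rpl21, Rpl37a, Eef1a1 and Larp1) were chosen after their values were seen. Results that needed some further genes are not reported here, and the plots by gene leave them out. Library totals ranged from 7855665 to 9377220 counts, at which the detection floor of 3 counts equals 0.320 to 0.382 CPM. Alternatives were other scalings, no filter on low counts, DESeq2 1.42.0, limma-voom, a replicate block, other lengths and leaving out each library.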

Additional observations from a re-analysis of the deposited data

How the results depend on the processing

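Under all 13 alternatives (other scaling factors, no filter on low counts, DESeq2, limma-voom, a replicate block, crossed pairing and each library left out) 0 ribosomal protein genes were called. The number of genes called over the whole table was 1, and it was 62 without the filter on low counts (15 higher, 47 lower), 6 with DESeq2 and 6 with the replicate number as a block. It ranged from 1 to 48 when single libraries were left out, reaching 48 when control replicate 1 was left out and 2 when control replicate 2 was. The cause was not tested. Leaving out a library leaves a lone sample in its group, which is assumed to vary like the other group.

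The replicate numbers were not taken to pair the libraries. Deviations of same-numbered libraries correlated at -0.30 over 16924 genes and at 0.31 over the 85 members. With the replicate block the median of the standard members was -0.04 (56 below 0, 21 above), and no member gained or lost a call. Crossed pairing, chosen after seeing the data, called 2 genes (1 higher, 1 lower), of which 0 were members.

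The median of the standard members stayed between -0.04 and -0.02 under scaling, filter, tool and block, and ranged from -0.14 to 0.06 when single libraries were left out. The same ranges were -0.13 to 0.06 for the large and -0.16 to 0.06 for the small subunit. With libraries left out, the medians ranged from -0.13 to 0.08 for the TOP translation factors, -0.10 to 0.03 for p53 targets, -0.05 to -0.0040 for mTOR and TOP control, -0.20 to -0.0073 for the snoRNA host genes, -0.12 to -0.051 for initiation and release factors, -0.073 to 0.042 for ribosome biogenesis and -0.087 to -0.0039 for mitochondrial ribosomal proteins.

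Of the alternatives run on single named genes, 430 kept their direction and their side of the threshold, and 14 changed direction. Rpl36al was at 0.00049 without the filter on low counts. The others changed when a library was left out, and their log2 fold changes then ranged from -0.25 to 0.00062 for Rpl12, -0.25 to 0.030 for Rpl23, -0.22 to 0.0021 for Rps13, -0.23 to 0.0097 for Rpl7l1, -0.10 to 0.14 for Rpl22l1 and -0.079 to 0.059 for Rpl36al. They ranged from -0.17 to 0.10 for Rps27l, -0.15 to 0.014 for Fau, -0.055 to 0.18 for Rack1 and -0.45 to 0.0060 for Snhg5.

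With 2 libraries per group, the median deviation of the standard members varied between replicates with a pooled SD of 0.13 on the log2 scale, which is larger than the size of their median fold change. The confidence intervals of single standard members had a median half-width of 0.34.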
